A study of Mus musculus with 5 samples.

Results

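The transcripts described here encode 8 receptor components through which nerves, neuroendocrine cells and other sources of small transmitters can reach group 2 innate lymphoid cells (ILC2s). They are Nmur1, Ramp1, Ramp3, Calcrl, Vipr1, Vipr2, Chrna7 and Htr1b, taken by name from the 22180 genes that the arrays measured with a probe set paired with 1 symbol. Each of the 8 had 1 such probe set, and all 8 were bright enough to be among the 16635 genes tested. The cells were lung ILC2s of naive adult male mice, either wild type (3 arrays) or IL-33 knockout (2 arrays), each array a biological replicate per the labels. Neither genotype had received a treatment according to the labels. The sources used here do not give the strain, the knockout allele, the way the cells were gated or any pooling of mice. Signals are log2 values from RMA, a method that summarises the probes of a probe set, so 1 unit is a doubling.

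ILC2s are tissue-resident lymphocytes that make type 2 cytokines and carry receptors for several neural signals. Neuromedin U from cholinergic neurons acts through Nmur1, a G protein-coupled receptor that raises calcium and is known to drive type 2 cytokine release. Calcitonin gene-related peptide (CGRP) needs a receptor made of Calcrl and the accessory protein RAMP1, while RAMP2 or RAMP3 turn the same Calcrl chain into an adrenomedullin receptor. Vasoactive intestinal peptide (VIP) binds Vipr1 and Vipr2, which raise cyclic AMP (cAMP). Chrna7 forms an acetylcholine-gated channel known to dampen inflammatory cells, and Htr1b is a serotonin receptor coupled to inhibitory G proteins.

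The arrays resembled each other in overall signal, with medians of 4.29 to 4.33, and Pearson's r across probe sets was 0.893 to 0.933 between arrays. Many deposited values were identical on several arrays, and 36.4% of the genes tested had 5 distinct values. ILC2 identity markers gave mean log2 signals of 8.85 to 8.98 over 12 measured genes on all arrays, with Il7r at 11.26 to 11.45. The array means of the other marker lists were 3.69 to 5.07. Among T cell markers Cd3g stood apart at 9.10 to 9.74, while Cd4 and Cd8a stayed at 3.41 to 4.16. In the mast cell, basophil and eosinophil list Kit read 9.31 to 9.77 and Cpa3 6.43 to 7.40. Of its 10 genes, 7 had means below the median gene. Pecam1 of the endothelial list read 6.48 to 7.21, and 8 of the 16 genes there had means below the median gene. Knockout replicate 2, labelled male, had an Xist signal of 7.91 against 2.35 to 3.10 on the others. Of 3 Y-linked genes, Uty read 7.17 there, the highest of the arrays, while Eif2s3y at 6.14 and Kdm5d at 4.79 were the lowest, against 6.82 to 7.62 and 5.57 to 5.63. For the 8 members, results are therefore also given without that array. Differences of other genes are given over all 5 arrays only. Il33 read 3.32 to 3.39 in wild type and 3.79 and 3.95 in knockout, below the median gene in both. It was too faint to be tested and the position of its probes is unknown here, so it does not check the genotype labels.

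The 8 receptor transcripts ranged from faint to among the brightest signals. In wild type the Nmur1 probe set stood at the 99.5th percentile of all genes and that of Vipr2 at the 98.2nd, averaged over the 3 arrays. Calcrl stood at the 91.4th percentile, Ramp1 at the 91.2nd and Ramp3 at the 84.8th. Htr1b and Chrna7 lay at the 61.4th and 60.3rd percentiles, and Vipr1 at the 34.9th. The neighbours Calcrl and Ramp1, and likewise Htr1b and Chrna7, overlapped between arrays and have no order. In knockout arrays Nmur1 was at the 99.2nd percentile, Vipr2 at the 97.3rd and Vipr1 at the 32.8th, so the same members held both ends of that order in either genotype. These are ranks of probe-set signals, which depend on the probes as well as on the transcript, and are not amounts per length.

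The upstream sequences of the brightest member and of the 2 VIP receptor genes are shown because these members lie at opposite ends of the range. They are the 250 bases before the annotated start, read 5′ to 3′ on the gene's strand from RefSeq's GRCm38.p6 tables, with CG dinucleotides in capitals. Nmur1 is at chr1:86389362-86389611 on the minus strand, before the outer of its 2 listed starts. Vipr2 is at chr12:116077476-116077725 and Vipr1 at chr9:121642466-121642715, both on the plus strand.
Nmur1: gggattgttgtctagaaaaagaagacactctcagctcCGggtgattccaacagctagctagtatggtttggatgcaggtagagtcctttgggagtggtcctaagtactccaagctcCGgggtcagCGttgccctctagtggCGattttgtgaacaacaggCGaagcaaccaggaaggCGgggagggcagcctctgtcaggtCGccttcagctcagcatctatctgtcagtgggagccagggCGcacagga
Vipr2: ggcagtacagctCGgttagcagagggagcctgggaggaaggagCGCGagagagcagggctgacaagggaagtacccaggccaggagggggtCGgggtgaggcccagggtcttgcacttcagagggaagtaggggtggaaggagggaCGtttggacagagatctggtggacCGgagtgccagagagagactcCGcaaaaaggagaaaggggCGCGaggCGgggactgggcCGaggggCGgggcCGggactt
Vipr1: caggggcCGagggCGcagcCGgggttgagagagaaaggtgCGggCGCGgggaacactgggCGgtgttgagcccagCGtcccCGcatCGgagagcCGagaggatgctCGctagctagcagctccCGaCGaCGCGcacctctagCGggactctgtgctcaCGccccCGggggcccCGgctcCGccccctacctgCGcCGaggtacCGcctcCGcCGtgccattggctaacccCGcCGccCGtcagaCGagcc
The Nmur1 window held 8 CG dinucleotides at a G+C content of 55.2%, the Vipr2 window 13 at 65.2% and the Vipr1 window 30 at 72.8%. The median over 32851 such windows was 6 CG dinucleotides and 52.4% G+C. Among the other members, Chrna7 had 25 CG dinucleotides, Ramp3 13, Htr1b 6, Ramp1 4 and Calcrl 3. The inner start of Nmur1 had 2 CG dinucleotides at 46.8% G+C, so its 2 windows lie on either side of the medians. The GATA core GATAA, searched like the other motifs on both strands, occurred in 1 of the 9 member windows, at the inner start of Nmur1, and in 22.6% of all windows. The cAMP response motif TGACG occurred in the Vipr1 window alone among the members, and in 17.8% of all windows. The AP-1 site TGACTCA occurred in no member window and in 4.46% of all windows. TGACG and TGACTCA share their first letters, and no member window held more than 1 of these motifs. These matches describe letters in the windows and say nothing of binding.

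Between genotypes, Nmur1 and Calcrl were lower and Ramp3, Chrna7 and Htr1b higher on both knockout arrays than on every wild-type array, while Ramp1, Vipr1 and Vipr2 overlapped. None of the 8 passed limma's test at an adjusted p of 0.05, nor did any of the 16635 genes (0%). An unadjusted p below 0.05 was reached by 1271 genes (7.64%), 5.05% higher and 2.59% lower in knockout, and among them by 2 members, Ramp3 above and Nmur1 below. The 5 of 8 members without overlap compare with 18% of all genes tested, of which 11.6% were higher and 6.32% lower in knockout. The members were chosen with earlier results of these arrays known, so this count is not independent evidence. It was 5 of 8 without knockout replicate 2, where the share over all genes was 47.8%, and 6 of 8 without knockout replicate 1, where that share was 54%. The median difference of the 8 members was -0.02, against 0.04 over all genes tested. In bulk RNA, fewer cells carrying a transcript and less of it per cell cannot be told apart.

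**Figure D1:**
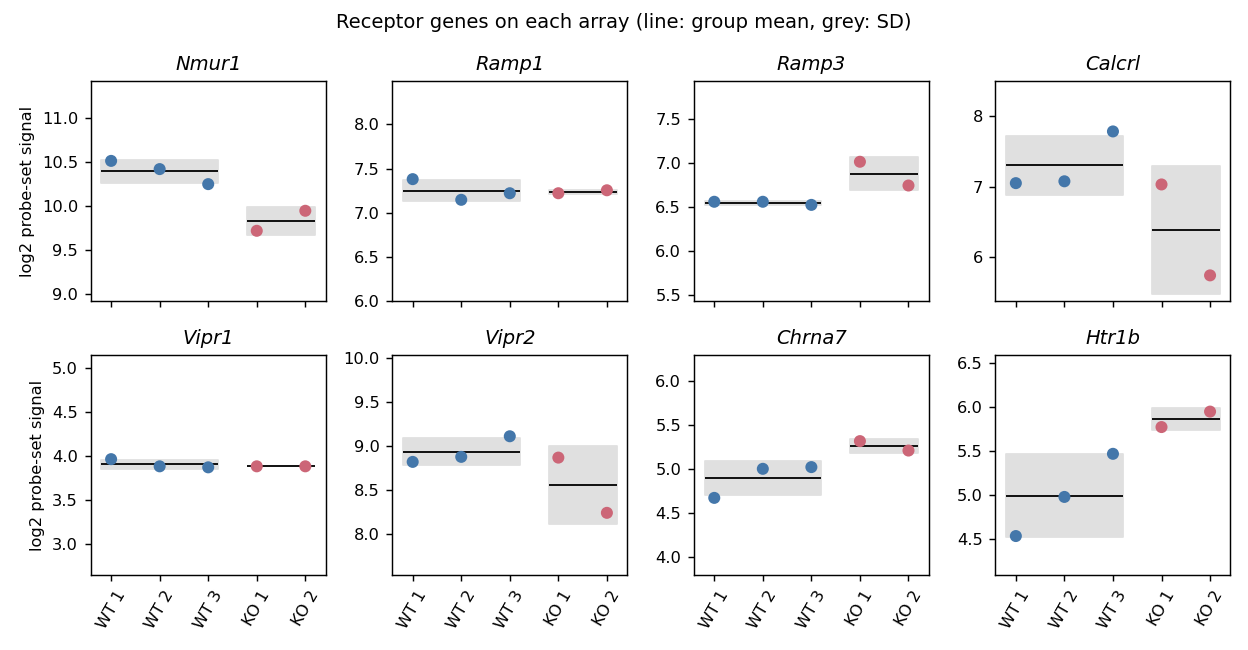
Log2 probe-set signal (y axis) of the 8 receptor genes on the 3 wild-type (WT, blue) and 2 IL-33 knockout (KO, red) arrays, with the group mean as a line and the SD in grey; every panel has its own range. Both knockout points lie below the wild-type points for Nmur1 and Calcrl and above them for Ramp3, Chrna7 and Htr1b, and knockout replicate 2 stands apart for Calcrl at 5.74.

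Nmur1, the neuromedin U receptor gene, read 10.51, 10.42 and 10.25 on the wild-type arrays and 9.72 and 9.94 on the knockout arrays. The lowest wild-type array was above the highest knockout array, and the spread within each genotype was small, with means of 10.39 ± 0.13 (SD, n = 3) and 9.83 ± 0.16 (SD, n = 2). The difference was -0.56 on the log2 scale (SE 0.12), a 1.48-fold lower signal in knockout, with a 95% interval from -0.90 to -0.22. By its limma p it ranked 369th of 16635 genes, with an adjusted p of 0.468. It was -0.45 without knockout replicate 1 and -0.67 without knockout replicate 2. Despite the lower signal, Nmur1 stayed above the 99th percentile of genes on both knockout arrays, at 99.05 and 99.29.

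The neuromedin U ligand gene Nmu read 4.10 to 4.30 in wild type and 4.30 and 4.68 in knockout, a difference of 0.26 with overlap, near the median gene of 4.44. The second receptor gene, Nmur2, gave exactly 3.73 on all 5 arrays, so its spread is 0 and it carries no information on the genotypes.

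Calcrl, the seven-pass chain shared by the CGRP and adrenomedullin receptors, had the widest difference of the 8 members and also the widest spread. It read 7.05, 7.08 and 7.79 in wild type and 7.03 and 5.74 in knockout. Knockout replicate 1 lay just below the lowest wild-type array, and knockout replicate 2 lay more than 1 unit below every other array. The difference was -0.92 (SE 0.51), and its 95% interval, from -2.34 to 0.50, includes 0; limma's adjusted p was 0.623. Without knockout replicate 2 the difference was -0.27 and without knockout replicate 1 it was -1.56, so 1 array decided its size. The pooled SD of Calcrl, 0.63, was larger than that of 94.9% of the genes tested.

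The accessory protein genes did not share the low value of Calcrl in knockout replicate 2. Ramp1, which completes the CGRP receptor, read 7.38, 7.14 and 7.22 in wild type and 7.22 and 7.25 in knockout, with both knockout arrays inside the wild-type range. Its difference was -0.01 (SE 0.09) with an interval from -0.26 to 0.24, and its sign changed with the normalization and with single arrays.

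Ramp3, which forms an adrenomedullin receptor with Calcrl, read 6.56, 6.56 and 6.52 in wild type and 7.01 and 6.74 in knockout. The knockout arrays were above the wild-type arrays, which were almost identical, and the first 2 held exactly the same value. The difference was 0.33 (SE 0.10), a 1.26-fold higher signal, with a 95% interval from 0.06 to 0.60 and a limma adjusted p of 0.557. It was 0.20 without knockout replicate 1. Without knockout replicate 2 it was 0.47, and limma's adjusted p was then 0.0456, with the spread of the single knockout array taken from wild type. That fit called 389 genes in all. When genes with fewer than 4 distinct values were left out, the unadjusted limma p of Ramp3 was 0.0952 in place of 0.0282.

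Ramp2, the third gene of that family and also an endothelial marker, read 5.23, 5.23 and 4.66 in wild type and 5.34 and 5.90 in knockout, a difference of 0.58 (SE 0.29) without overlap and with a limma adjusted p of 0.623. Of the 6 tested genes of CGRP and adrenomedullin biology other than the members, 5 were above 0. Ramp2 was the 1 without overlap, against 18% of all genes tested. The CGRP gene Calca had no probe set paired with its symbol alone and was not analysed here.

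Lung endothelium is known for Calcrl and Ramp2 expression, and several of its markers had higher signals in knockout. The mean of the 16 measured endothelial markers was 4.50 to 4.66 in wild type and 4.79 and 4.92 in knockout, with 9 of 12 tested members above 0. Without overlap, 4 were higher and 1 lower, against 18% of all genes tested. The junction genes Cldn5 and Cdh5 were 1.59 and 1.44 higher, whereas Pecam1 differed by 0.09 with overlap. Kdr was the lower one, at 4.39 on all wild-type arrays and 4.18 and 4.30 in knockout. Emcn, Tek and Erg were among the 4 markers too faint to be tested. Tie1 at 0.09 and Vwf at 0.07 overlapped, and Eng at -0.17 and Sox17 at -0.06 were below 0 with overlap. Epithelial and neuroendocrine markers had a mean of 4.24 to 4.35 in wild type and 5.07 and 4.54 in knockout, with Scgb1a1 at 8.81 in knockout replicate 1. The part of these cells in the values of Ramp3, Ramp2 and Calcrl was not tested.

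**Figure D2:**
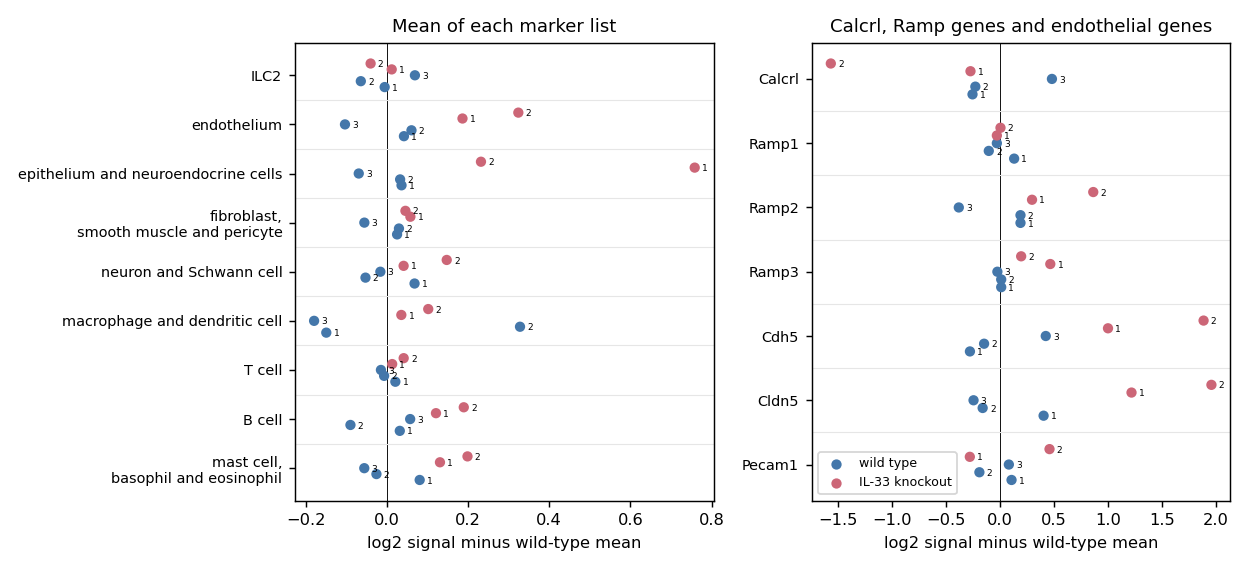
Log2 signal minus the wild-type mean (x axis) for the mean of each cell type marker list (left) and for Calcrl, the Ramp genes and 3 endothelial genes (right), with a point per array and its replicate number. Endothelial, epithelial, fibroblast, B cell and mast cell list means are higher on both knockout arrays, as are Cdh5 and Cldn5. The ILC2, neuron, macrophage and T cell list means overlap. Calcrl lies 0.92 lower in the mean, mostly through replicate 2.

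Among the VIP receptor genes, Vipr2 read 8.82, 8.87 and 9.11 in wild type and 8.86 and 8.24 in knockout. Knockout replicate 1 fell within the wild-type range and knockout replicate 2 lay below it. The difference was -0.38 (SE 0.23), with a 95% interval from -1.03 to 0.27 and a limma adjusted p of 0.623. It was -0.07 without knockout replicate 2 and -0.69 without knockout replicate 1, so this difference too came from 1 array, the one in which Calcrl was lowest. Both genotypes kept Vipr2 above the 96th percentile of genes on every array.

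Vipr1 gave 3.96, 3.88 and 3.87 in wild type and 3.88 on both knockout arrays. The values are below the median gene and 3 of the 5 are identical, so the difference of -0.02, with an interval from -0.16 to 0.12, describes a faint signal. Of the VIP and PACAP genes listed besides the members, all 6 tested were above 0, with a median difference of 0.16, against 0.04 over all genes. Of these 6, 5 had means below the median gene and none had an unadjusted limma p below 0.05. Without overlap was 1 of them, against 18% of all genes tested. Vip read 3.54 to 3.79 in wild type and 3.83 and 3.79 in knockout, and the PACAP receptor gene Adcyap1r1 4.27 to 4.37 and 4.30 and 4.60. Adcyap1, which encodes PACAP, was 0.17 higher without overlap at 3.57 in wild type. Signals of Vip and Adcyap1 were below the median gene on all arrays.

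Chrna7, the alpha7 nicotinic receptor subunit gene, read 4.68, 5.01 and 5.03 in wild type and 5.32 and 5.21 in knockout. Both knockout arrays were higher, and the closest arrays of the 2 genotypes lay nearer to each other than the lowest and highest wild-type arrays. The difference was 0.36 (SE 0.14), a 1.29-fold higher signal, with a 95% interval from -0.03 to 0.75 and a limma adjusted p of 0.623. It was 0.31 and 0.42 with either knockout array left out, so both contributed. The mean signal of 4.90 ± 0.20 (SD, n = 3) in wild type was modest, with the median gene at 4.44.

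Of the other acetylcholine genes, 20 were tested, 13 above and 7 below 0, and 2 were higher without overlap, the muscle-type subunit genes Chrnd by 0.22 and Chrne by 1.14. Chrne read 4.26 to 4.50 in wild type and 4.56 and 6.44 in knockout, so its difference came mainly from replicate 2. Chat, which encodes the enzyme that makes acetylcholine, read 3.40 to 3.74 in wild type and 3.83 and 3.74 in knockout, faint in both. The list median was 0.06, against 0.04 over all genes tested. The 2 of 20 without overlap compare with 18% of all genes tested.

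Htr1b read 4.54, 4.98 and 5.47 in wild type and 5.77 and 5.95 in knockout. The wild-type arrays were spread over almost 1 unit, and the highest of them was still below the lower knockout array. The difference was 0.87 (SE 0.31), a 1.82-fold higher signal, with a 95% interval from -0.02 to 1.75 and a limma adjusted p of 0.623. With either knockout array left out it was 0.95 and 0.78. A second probe set that names Htr1b together with D430036J16Rik did not show the same pattern. It read 4.05, 4.20 and 4.05 in wild type and 5.41 and 3.47 in knockout, above all wild-type arrays in replicate 1 and below them in replicate 2, a mean difference of 0.34. That both knockout arrays were higher therefore rests on 1 of the 2 probe sets.

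Serotonin synthesis and receptor genes other than Htr1b included 15 tested, with 10 above and 4 below 0. Of these, 3 did not overlap, against 18% of all genes tested. Ddc, which encodes the decarboxylase of the last step to serotonin, was 0.59 higher and Htr1d 0.16 higher, while Htr2a differed by -0.78, all without overlap. Ddc, with a wild-type mean of 3.43, and Htr1d were faint, below the median gene in both genotypes. Of the 21 measured genes of that list, 17 had means below the median gene. Htr2a read 4.90 to 5.90 in wild type and 4.89 and 4.06 in knockout, with an SE of 0.46. Knockout replicate 1 thus lay barely below the lowest wild-type array for Htr2a. Tph1, the gene of the first enzyme of serotonin synthesis outside the brain, read 4.96 to 5.25 in wild type and 6.05 and 5.04 in knockout, so replicate 1 alone stood above wild type.

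**Figure D3:**
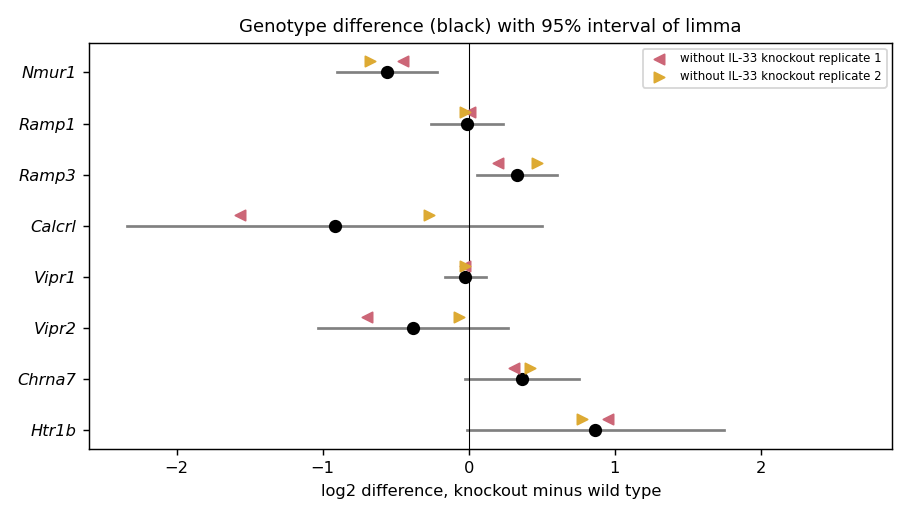
Log2 difference, knockout minus wild type (x axis), of the 8 receptor genes, with limma's 95% interval as a line and the difference after leaving out either knockout array as a triangle. The intervals of Nmur1, from -0.90 to -0.22, and Ramp3, from 0.06 to 0.60, lie on 1 side of 0, and the triangles of Calcrl and Vipr2 are far apart.

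By likeness of pattern, each member without overlap was set beside the genes with the smallest root mean square difference over the 5 arrays, after centring on their own means, among 13877 protein-coding genes. For Nmur1 these were Commd2, Junb and Lxn, at 0.06 to 0.07 log2 units, where Nmur1 itself varied by 0.30 about its mean. Junb, an AP-1 factor gene, read 11.33 to 11.63 in wild type and 10.96 and 11.19 in knockout. For Ramp3 they were Ldb3, Igsf23 and Itgb5, at 0.02 to 0.03, all 3 below a signal of 5 on every array. For Calcrl they were Ric8b, Man2a2 and Etf1, at 0.08 to 0.09. Each was lowest in knockout replicate 2, which follows from choosing them by the pattern of Calcrl. For Chrna7 they were Efna2, Nrxn2 and Ptdss1, at 0.02 to 0.04, and for Htr1b Lrrc51, Ethe1 and the interferon-gamma receptor gene Ifngr2, at 0.08 to 0.11. With 5 arrays and many genes, close neighbours can be found for any pattern.

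Among genes that act around these receptors, 12 lists held 156 tested genes, of which 26 (16.7%) did not overlap, against 18% of all genes tested. Of these, 22 were higher and 4 lower in knockout. Over all genes tested, 1936 were higher and 1052 lower without overlap. By limma none of the 156 reached an adjusted p of 0.05, 10 had an unadjusted p below 0.05, and their median difference was 0.05. The share without overlap is near that of all genes.

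Genes downstream of G proteins had differences on both sides of 0. Their counts without overlap compare with 18% of all genes tested, 11.6% higher and 6.32% lower in knockout. Of 31 tested genes for G proteins, adenylyl cyclases, protein kinase A and phosphodiesterases, 18 were above and 11 below 0, and 4 were higher and 2 lower without overlap. Pde4a, a cAMP phosphodiesterase gene, read 4.39 to 4.71 in wild type and 5.06 and 5.43 in knockout, a difference of 0.64. Prkaca, a catalytic subunit of protein kinase A, read 6.58 to 6.99 and 6.38 and 5.99, a difference of -0.62. Gna13, a G protein alpha subunit gene, was 1.10 higher. In the calcium pathway that Nmur1 uses, 8 of 15 tested genes were above 0 and Plcb3, a phospholipase C gene, at -0.48, was the 1 without overlap.

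Among regulators and response genes, the share without overlap was near the 18% of all genes tested. Those genes were all higher in knockout, where the shares over all genes tested were 11.6% higher and 6.32% lower. Rgs2 and Rgs1, which shorten G protein signals, were 0.35 and 0.54 higher, at 11.36 ± 0.09 (SD, n = 3) and 9.49 ± 0.21 (SD, n = 3) in wild type; they were the 2 of 13 tested desensitisation genes without overlap. Among 14 cAMP response genes 3 were higher without overlap. The AP-1 gene Fosl2 read 8.97 to 9.44 in wild type and 10.24 and 9.99 in knockout, a difference of 0.92. Crem, a cAMP-responsive transcription factor gene, was 0.53 and the nuclear receptor gene Nr4a2 0.96 higher. The list also holds genes that respond to tissue dissociation, and its mean was 8.43 to 8.85 in wild type, 9.12 in knockout replicate 1 and 8.47 in replicate 2. Limma's adjusted p was 0.446 for Fosl2 and 0.518 for Rgs2.

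Other transmitter receptors were mostly faint. The counts without overlap given next compare with 18% of all genes tested, 11.6% higher and 6.32% lower in knockout. Of 21 tested receptor genes for further neuropeptides, 15 were above and 4 below 0, and 5 were higher without overlap, with Npy5r, Galr1 and Sstr3 at differences of 0.24, 0.34 and 0.27. Of the 29 measured genes of that list, 21 had means below the median gene. Among catecholamine receptors 6 were tested and Drd4 alone did not overlap, at 0.26. Among the effector genes that these receptors are known to act on, 2 of 7 were above 0 and 5 below. Il4 was the 1 without overlap, 0.79 higher, at 6.12 to 6.24 in wild type and 6.57 and 7.36 in knockout.

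**Figure D4:**
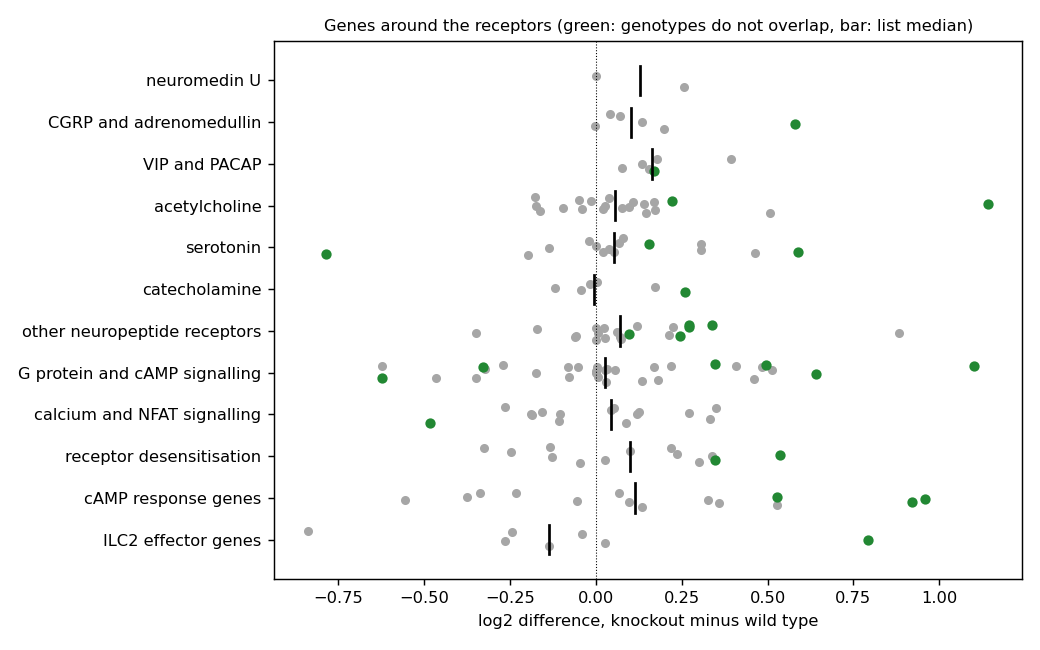
Log2 difference, knockout minus wild type (x axis), of the 156 tested genes in the 12 lists around the receptors (y axis; a point per gene, vertical scatter within a list for legibility, bar at the list median). Green points, the 26 genes whose genotypes do not overlap, include 22 to the right of 0 and 4 to the left. Over all genes tested, 1936 without overlap were higher and 1052 lower.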

How the data were processed

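Total RNA extracted with Trizol was labelled with biotin, per the labels' protocols. The authors deposited log2 signals per probe set; the submitters' processing notes name Affymetrix Expression Console and RMA, without versions or settings. RMA commonly equalises array distributions, which would hide a shift of all transcripts. Of 41345 probe sets, 23521 had 1 symbol; names were updated by gene identifier through RefSeq's GRCm38.p6 table. Each gene was represented by its probe set of highest mean, and the faintest 25% of genes were left out. The genotype fit used limma 3.58.1 under R 4.3.3 (lmFit, eBayes, Benjamini-Hochberg over 16635 genes), without a block. The fit was tested on simulated data. The number of arrays limits the precision; p-values measure the spread between these arrays. An exact permutation over 5 arrays cannot go below 0.1, so none was run. Members and lists were chosen with earlier results of these data known. Besides the 8 members and 9 genes set for their role, up to 3 genes without overlap and with the smallest p were named per list, and 3 by likeness per member without overlap; markers are named from their lists. D430036J16Rik was named after its values were seen. Alternatives covered the filter, probe sets, normalization, variance model, array weights, a replicate block and leaving out each array; the restriction to 4 distinct values, the second Htr1b probe set and the counts without overlap after leaving out arrays were added after seeing the data.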

Additional observations from a re-analysis of the deposited data

How the results depend on the processing

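Over 15 alternatives each (13 for Vipr1, which 2 of them left out), the differences of Nmur1, Ramp3, Calcrl, Vipr2, Chrna7 and Htr1b kept their sign. Nmur1 ranged from -0.67 to -0.45, Ramp3 from 0.20 to 0.47, Calcrl from -1.56 to -0.27, Vipr2 from -0.69 to -0.07, Chrna7 from 0.25 to 0.43 and Htr1b from 0.64 to 1.10, all extremes being reached with 1 array left out. Ramp1 changed sign after quantile normalization, at 0.0024, and ranged from -0.063 to 0.054 with 1 array left out; Vipr1 ranged from -0.041 to 0.0057 there. Ramp3 passed the threshold without knockout replicate 2, and no other member passed in any alternative. With 1 array left out, 0 to 1072 genes passed over the whole table, 1072 without knockout replicate 1 and 389 without replicate 2; in the other alternatives limma called 0, also at an adjusted p of 0.1, with 823 to 1534 genes at an unadjusted p below 0.05. Members without overlap numbered 5 to 6. With the replicate number as a block, 0 genes passed, Nmur1 differed by -0.63 and Htr1b by 1.10; same-numbered arrays deviated with r = -0.05 and 0.14, so the numbers are not taken to pair the arrays. The number of arrays, 3 and 2, and the many equal values limit what can be told apart.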
